A study of Mus musculus with 18 samples.

Results

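The integrin and laminin genes of the mouse were followed across lung organoids and tumoroids of the EGFR T790M/L858R model. Members were all genes whose symbol is Itga or Itgb with a number or letters, or Lama, Lamb or Lamc with a number, and which encode an integrin subunit or a laminin chain. The rule gave 37 genes of the 46603 in the tables, 26 integrin subunits and 11 laminin chains. Of these, 33 had a mean of at least 1 CPM (counts scaled to library size) over the 18 samples and entered the counts below, and the other 4 (Itgad, Itgae, Itgax and Itgb2, all leukocyte subunits) lay below it. CPM here uses TMM factors over all 18 samples, and TPM is the length-scaled share of a library's transcripts.

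All cultures came from mice with a human EGFR transgene carrying T790M and L858R, placed with a CAG promoter and a lox-stop-lox cassette in the Col1a1 locus. Sorted cells were divided between Ad-GFP, a control adenovirus, and Ad-Cre, which removes the stop cassette, and were grown in Matrigel with neonatal lung support cells that the labels call mesenchymal endothelial. The 10 organoid cultures were tracheal NGFR-negative and NGFR-positive cells, AT2 cells and mixed BASCs (bronchioalveolar stem cells) with each virus, and BASC cultures picked by shape as alveolar and bronchiolar, both with Ad-Cre. The 8 tumoroids were grown from tumors, 3 from AT2 and 3 from mixed BASC transplants, 1 from a bronchiolar BASC transplant into immunodeficient mice, and 1 from an autochthonous tumor. All 8 arose from cells given Ad-Cre, the transplanted organoids in culture and the autochthonous tumor by the intranasal route. No organoid condition was repeated, and both aliquots of a sorted population share their cells. The paper describes the alveolar, bronchiolar and mixed BASC cultures as subcloned by hand from BASC-derived organoids, so they may share cells too. Tumoroid labels that share a number may share a mouse. The tests between lineages treat all cultures as independent, and the p values measure the spread between these cultures.

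Integrins are pairs of an alpha and a beta subunit that hold cells to the matrix and signal through talin, kindlin and focal adhesion kinase. Laminins are trimers of an alpha, a beta and a gamma chain and form the backbone of basement membranes. In the airway, basal cells are anchored by hemidesmosomes, in which the α6β4 integrin binds an epithelial laminin that holds the chains encoded by Lama3 and Lamb3. Alveolar epithelium rests on a thin basement membrane rich in type IV collagen and laminins with the α5 chain, and fibroblasts and muscle cells carry other integrins and the laminin α2 and α4 chains.

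The least deeply sequenced organoid held 27772660 expected counts and the deepest 97191624, and tumoroids held 15327265 to 23355938. Organoids were sequenced from TruSeq libraries on a HiSeq and tumoroids from BGI libraries on a DNBSEQ, so platform and transplantation cannot be told apart. The NGFR-negative tracheal cultures, sorted as club cells, held 3 club markers at a sum of 3759 and 3339 CPM, made up of Cyp2f2 (2982 and 2669 CPM), Scgb3a2 (774 and 666 CPM) and very little Scgb1a1 (2.56 and 4.43 CPM). They also held 4 basal markers at a sum of 3936 and 3857 CPM. The NGFR-positive cultures held 3581 and 2304 CPM of the club and 3569 and 3103 CPM of the basal markers, so these lists did not set the sorts apart, and the cultures are called by their sort. Summed over 6 AT2 markers, the alveolar organoids (AT2 with Ad-GFP, AT2 with Ad-Cre and alveolar BASC) reached 38550 to 44240 CPM and the tracheal organoids 135.8 to 191.6 CPM. Fibroblast markers (Col1a2, Col3a1, Dcn, Lum, Pdgfra, Pdgfrb) were present in every culture, while 5 endothelial markers summed to at most 8.38 CPM, with Emcn at 0 counts in most libraries. In these bulk samples fewer cells of a type and less RNA per cell cannot be told apart.

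Upstream sequences are shown for Itga2 and Lamb3, which were lower in alveolar organoids, and for Itga8 and Itga9, which were higher there. Each run is the 250 bases before a RefSeq transcription start (GRCm38.p6), 5′ to 3′ on the gene's strand. Capitals mark CACTTG on either strand, a core bound by NKX2-1, the lung lineage factor, which also fits the E-box CANNTG. Itga2 lies at chr13:114932101-114932350 (minus strand), Lamb3 at chr1:193301744-193301993 (plus strand), Itga8 at chr2:12301945-12302194 (minus strand) and Itga9 at chr9:118711442-118711691 (plus strand). The Lamb3 and Itga9 runs lie inside the gene spans given below, before a RefSeq start internal to that span. Whether these cultures use those starts was not tested.
Itga2: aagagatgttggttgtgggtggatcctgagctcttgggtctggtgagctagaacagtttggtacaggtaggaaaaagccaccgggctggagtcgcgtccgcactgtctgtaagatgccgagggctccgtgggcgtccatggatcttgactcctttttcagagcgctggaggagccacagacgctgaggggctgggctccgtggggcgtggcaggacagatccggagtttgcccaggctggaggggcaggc
Lamb3: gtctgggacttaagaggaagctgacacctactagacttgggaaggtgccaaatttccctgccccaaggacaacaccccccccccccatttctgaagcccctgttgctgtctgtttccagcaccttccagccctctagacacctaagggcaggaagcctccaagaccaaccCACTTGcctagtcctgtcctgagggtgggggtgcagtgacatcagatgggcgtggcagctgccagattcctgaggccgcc
Itga8: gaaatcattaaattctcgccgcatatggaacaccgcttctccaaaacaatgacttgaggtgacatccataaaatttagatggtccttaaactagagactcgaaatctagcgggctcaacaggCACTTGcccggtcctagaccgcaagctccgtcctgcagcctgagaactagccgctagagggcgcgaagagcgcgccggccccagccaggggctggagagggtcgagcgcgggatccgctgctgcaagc
Itga9: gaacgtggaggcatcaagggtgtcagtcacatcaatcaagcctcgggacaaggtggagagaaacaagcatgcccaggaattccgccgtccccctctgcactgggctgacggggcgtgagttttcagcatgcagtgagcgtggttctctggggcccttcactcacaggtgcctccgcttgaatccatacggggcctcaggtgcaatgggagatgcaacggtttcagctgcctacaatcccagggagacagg

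The table held a promoter for 22 of the members searched. On either strand, CACTTG was found in 4 of the 22 (18.2%) and in 11.6% of all 32851 promoters of the same length. The AP-1 site TGANTCA was found in 0 of the 22 and in 6.75% of all promoters, the TEAD site GGAATG in 2 of the 22 and in 12.6% of all, and the GC box GGGCGG in 8 of the 22 and in 32.7% of all. Among the 4 genes printed, Lamb3 and Itga8 each held 1 CACTTG and none of the 4 held another of these motifs. A match is only a run of letters, and CACTTG was present in the printed run of 1 gene of each direction.

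Per length, as mean TPM, Itgb1 (the common β1 subunit) was the highest member in the tracheal organoids (497 TPM), in the alveolar organoids (406 TPM) and in the 6 AT2 and mixed BASC tumoroids (272 TPM), followed in each by Lama5 (the laminin α5 chain). Among these tumoroids Lama5 exceeded Itgb1 in AT2 replicate 2 (287 against 251 TPM) and mixed BASC replicate 3 (396 against 231 TPM). In the rest Itgb1 was above Lama5. The groups differed in other abundant members. In the tracheal organoids Itga6, Lamb3, Itgb4 and Itga3 were at 264, 189, 180 and 180 TPM, the last 3 of which overlapped one another from culture to culture. In the alveolar organoids Itga7 reached 135 TPM, and Itgb4 stood at 1.06, 4.51 and 6.46 TPM. The heat map by class shows these blocks.

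**Figure D1:**
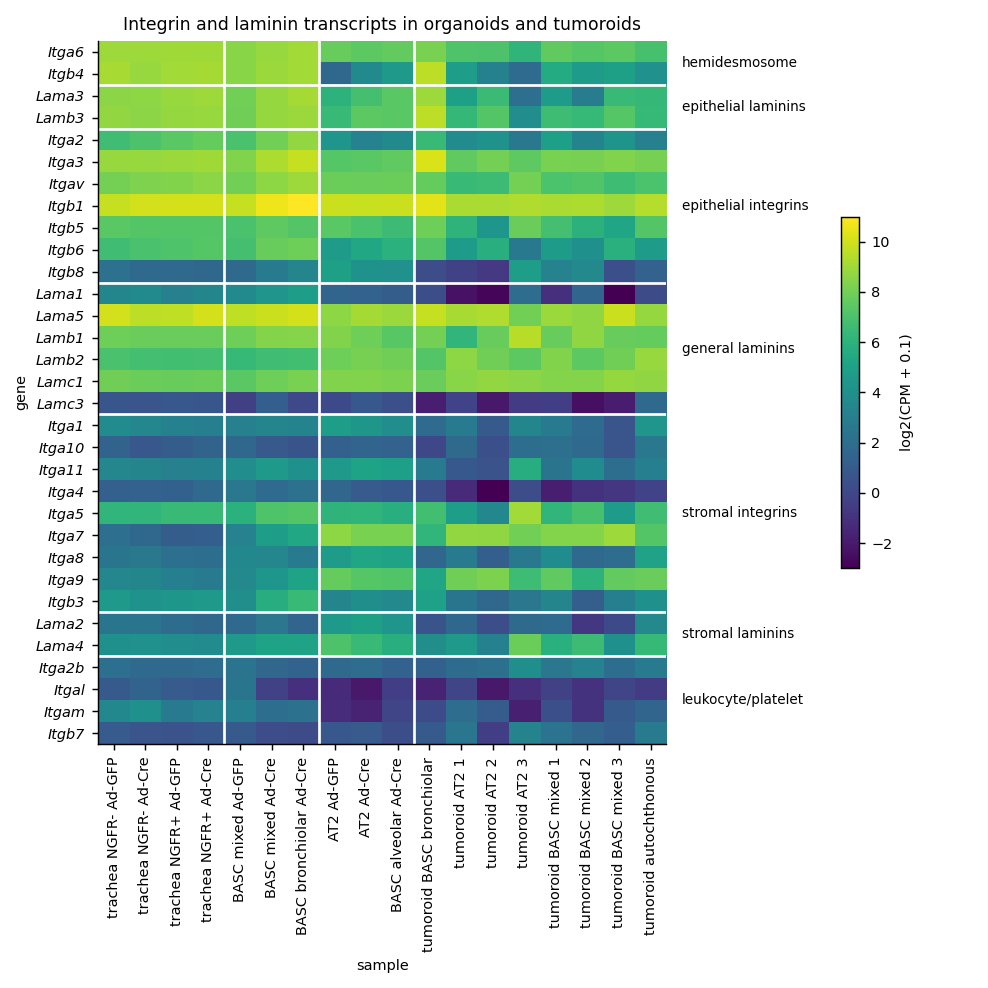
Level of the members shown (rows, grouped by class) in each of the 18 cultures (columns), as log2(CPM + 0.1). White lines separate the tracheal organoids, the mixed and bronchiolar BASC organoids, the alveolar organoids and the tumoroids. In the Itgb4, Lama3 and Lamb3 rows the bronchiolar tumoroid lies nearer the first 2 groups than the alveolar organoids. Its Itga6, at 292 CPM, lies between the highest alveolar organoid (213 CPM) and the lowest culture of the first 2 groups (363 CPM).

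The first comparison asked how the lineages differ before transplantation, with 4 tracheal, 3 mixed and bronchiolar BASC and 3 alveolar cultures in a single fit. Between alveolar and tracheal organoids 21 of the 33 members passed the test, against 60.9% of all 18754 genes tested, so the share of members called was near that of the background. Of the 21, 10 were higher in alveolar organoids (29.5% of all genes were called higher) and 11 were lower (31.4% of all genes). The median log2 fold change was -0.22 over the members and -0.06 over all genes. The members did not move together, and the classes below, drawn up with earlier results of these data known, differed in direction.

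The hemidesmosome integrins were lower in the alveolar organoids. Itgb4, which encodes the β4 subunit that pairs only with α6 (chromosome 11, 115974709 to 116008412 of GRCm38, plus strand), was at 586, 456, 541 and 550 CPM in the tracheal cultures. In the alveolar cultures it was at 3.22 (AT2 with Ad-GFP), 12.3 (AT2 with Ad-Cre) and 22.9 CPM (alveolar BASC), and in the mixed BASC cultures with Ad-GFP and Ad-Cre and the bronchiolar BASC culture at 372, 481 and 535 CPM. The alveolar cultures were all below every other organoid culture, with no overlap. The log2 fold change from tracheal to alveolar was -5.34 (SE 0.60, adjusted p = 5.51e-05), and from mixed and bronchiolar BASC to alveolar -5.13 (SE 0.60, adjusted p = 0.000121). Exons of Itgb4 overlap the antisense lincRNA B230344G16Rik, which had a mean of 1.28 CPM against 250 CPM for Itgb4.

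Itga6, the α6 subunit that pairs with β1 or β4, was also lower, by a smaller margin than its partner. It was at 498, 498, 513 and 508 CPM in the tracheal cultures and at 213, 175 and 201 CPM in the alveolar cultures. The groups did not overlap, and the log2 fold change was -1.32 (SE 0.13, adjusted p = 2.57e-05). Within a culture, Itga6 stood at 1.29 to 1.74 times the TPM of Itgb4 in the trachea, at 1.52 to 1.57 times in the mixed and bronchiolar BASC organoids and at 15.4 to 99.1 times in the alveolar organoids.

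The epithelial laminin chains Lamb3 and Lama3 were lower in the alveolar organoids. Lamb3, the β3 chain (chromosome 1, 193207699 to 193343878, plus strand), was at 419, 383, 448 and 460 CPM in the tracheal cultures and at 90.6, 179 and 170 CPM in the alveolar cultures, and Lama3, the α3 chain, at 384, 397, 460 and 491 CPM against 65.6, 117 and 171 CPM. Neither gene overlapped between these groups. Both fell, Lamb3 by 1.5 (SE 0.27, adjusted p = 0.00104) and Lama3 by 1.83 on the log2 scale (SE 0.33, adjusted p = 0.0011).

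**Figure D2:**
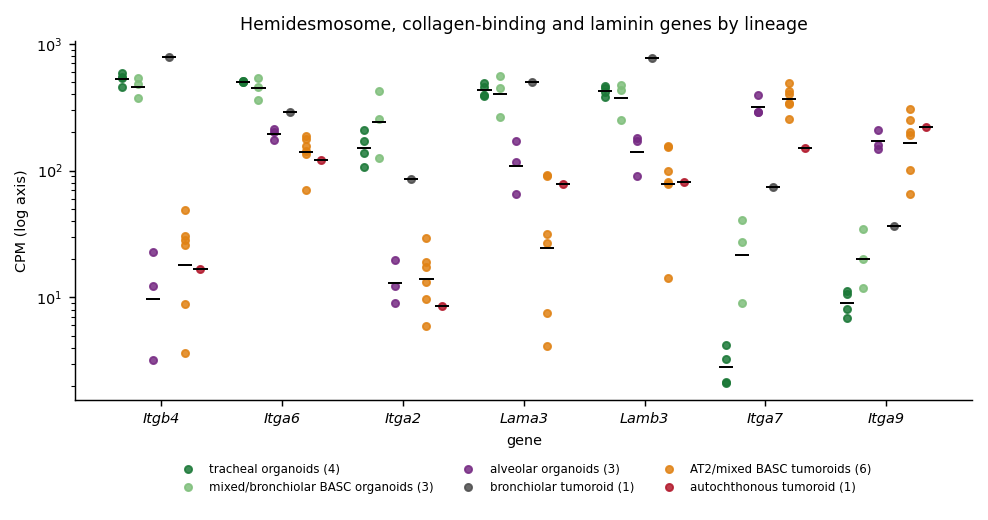
CPM (log axis) of 7 members in each culture, coloured by lineage, with black bars at the geometric mean of each group. Itgb4, Itga2, Lama3 and Lamb3 of the bronchiolar tumoroid lie with or near the tracheal and BASC organoids and above the 6 other transplant tumoroids, while Itga7 and Itga9 are lowest in the tracheal cultures.

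Of the 7 epithelial integrins, 3 were lower in the alveolar organoids, 1 was higher and 3 did not pass, beside 31.4% of all genes called lower and 29.5% higher. Itga2, the collagen-binding α2 subunit (chromosome 13, 114833081 to 114932100, minus strand), was at 106, 138, 171 and 210 CPM in the tracheal, at 127, 257 and 423 CPM in the mixed and bronchiolar BASC and at 19.8, 8.97 and 12.3 CPM in the alveolar cultures. The alveolar cultures were again lowest without overlap. The log2 fold change was -3.46 against trachea (SE 0.46, adjusted p = 0.000166) and -4.23 against the mixed and bronchiolar BASC organoids (SE 0.49, adjusted p = 0.000115).

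Itga3, the α3 subunit of the laminin receptor α3β1, fell by 1.42 (SE 0.28, adjusted p = 0.00168) and Itgb6, whose αvβ6 dimer activates latent TGF-β, by 1.59 on the log2 scale (SE 0.32, adjusted p = 0.00214). Itgb6 was at 106, 128, 141 and 159 CPM in the tracheal and at 25.4, 42.6 and 61.5 CPM in the alveolar cultures. Itgb8, a β subunit that also pairs with αv and is expressed by fibroblasts as well, was the exception, at 3.26 to 4.68 CPM in the trachea and at 31.0, 18.2 and 17.1 CPM in the alveolar cultures (log2 fold change 2.65, SE 0.35, adjusted p = 0.000166). Itgb1 was nearly level, at 875.5 to 1113 CPM and 896.9 to 931 CPM (log2 fold change -0.13, SE 0.26, adjusted p = 0.677).

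The largest rise in the alveolar organoids was that of Itga7, the α7 subunit of a laminin receptor best known from skeletal muscle (chromosome 10, 128933818 to 128958282, plus strand). It was at 4.25, 3.24, 2.09 and 2.14 CPM in the tracheal, at 9.03, 27.5 and 40.6 CPM in the mixed and bronchiolar BASC and at 393, 287 and 290 CPM in the alveolar cultures. The 3 lineages formed separate steps with no overlap. The log2 fold change from trachea to alveolar was 6.85 (SE 0.52, adjusted p = 5.89e-06), and from the mixed and bronchiolar BASC organoids 3.72 (SE 0.50, adjusted p = 0.000258). Per length Itga7 stood at 1.17 to 1.57 times Itga6 in the alveolar cultures and at no more than 0.00731 times Itga6 in the tracheal ones.

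Itga9, the α9 subunit that binds tenascin-C and osteopontin (chromosome 9, 118606690 to 118901003, plus strand), followed the same order. It was at 11.2, 10.6, 8.13 and 6.93 CPM in the tracheal, at 11.9, 20.02 and 34.3 CPM in the mixed and bronchiolar BASC and at 208, 159 and 147 CPM in the alveolar cultures. The alveolar cultures stood far above both other groups, which lay close together without overlap. The log2 fold change was 4.27 (SE 0.34, adjusted p = 7.61e-06).

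Both genes belong to the stromal class used here, 9 integrins known from fibroblasts, muscle or endothelium. Of all genes, 29.5% were called higher in the alveolar organoids and 31.4% lower. In this class 5 of the 9 were higher, Itga7 and Itga9 among them, and none lower. The others were Itga8, the nephronectin receptor subunit, at 4.07 to 6.03 CPM in the trachea and 27.0, 39.2 and 35.4 CPM in alveolar cultures (log2 fold change 2.83, SE 0.24, adjusted p = 9.98e-06), and the collagen-binding Itga11 (1.65, SE 0.19, adjusted p = 7.56e-05) and Itga1 (1.07, SE 0.23, adjusted p = 0.003). Both stromal laminins were higher as well. Lama4, the α4 chain, was at 13.4 to 16.9 CPM in the trachea and at 134, 89.6 and 54.1 CPM in the alveolar cultures (log2 fold change 2.65, SE 0.27, adjusted p = 3.37e-05), and Lama2, the α2 chain of muscle and mesenchymal laminin, at 3.28 to 5.36 CPM and 23.7, 31.3 and 19.6 CPM (2.56, SE 0.28, adjusted p = 4.78e-05).

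Fibroblast markers moved with this comparison. All 6 of the 6 were called higher in the alveolar organoids, beside 29.5% of all genes. Their sum was 1078 to 1163 CPM in the tracheal, 1119 to 2563 CPM in the mixed and bronchiolar BASC and 2907 to 5936 CPM in the alveolar cultures. None of the 6 was at 0 counts in any library. Smooth muscle markers summed to 57.6 to 67.3 CPM in the trachea and to 168 to 240.8 CPM in the alveolar cultures. Their part in the rises of Itga1, Itga7, Itga8, Itga9, Itga11, Itgb8, Lama2 and Lama4 was not tested.

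Across the cultures these levels and the fibroblast sum are given side by side. In the 6 AT2 and mixed BASC tumoroids, whose fibroblast sums ran from 265 to 6165 CPM, Itga7 was between 255 and 488 CPM and Itga9 between 65.8 and 304 CPM. AT2 tumoroid replicate 2, with the lowest sum, held Itga7 at 403 CPM, Itga9 at 304 CPM and Lama4 at 8.74 CPM, and replicate 3, with the highest, held 255, 101 and 230 CPM. The tracheal organoids, at sums of 1078 to 1163 CPM, held Itga7 at 2.09 to 4.25 CPM, and the bronchiolar tumoroid, at 1090 CPM, held it at 74.7 CPM.

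**Figure D3:**
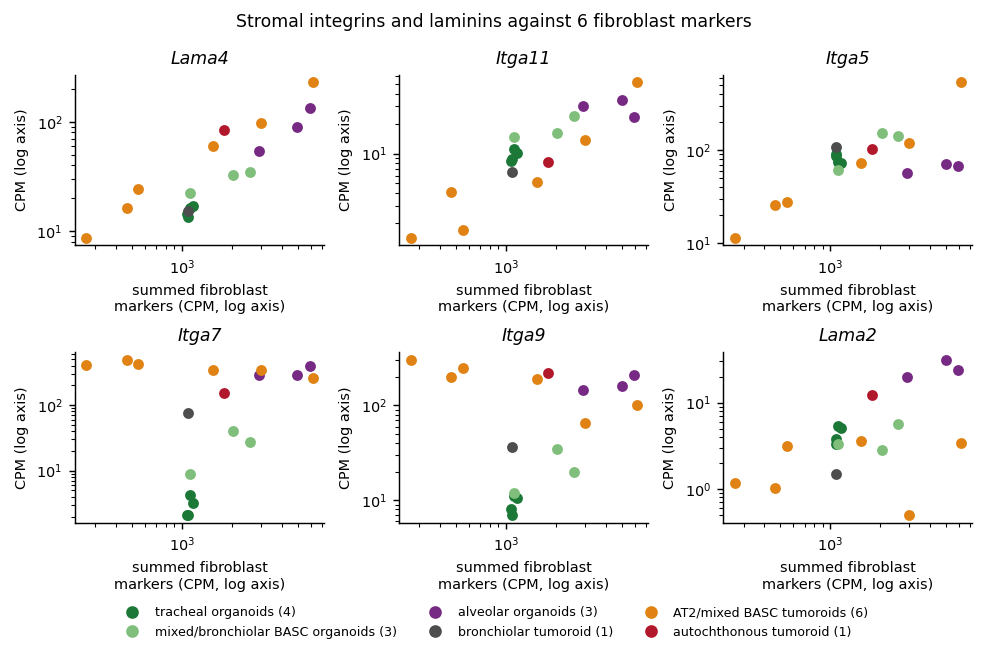
CPM of 6 members against the summed CPM of 6 fibroblast markers in each of the 18 cultures, both on log axes and coloured by lineage. Among the AT2 and mixed BASC tumoroids, Lama4 runs from 8.74 CPM at the lowest sum (265 CPM) to 230 CPM at the highest (6165 CPM), while Itga7 lies between 255 and 488 CPM.

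The laminin chains of general basement membranes were divided. Lamb2 (β2, chiefly of adult basement membranes) was higher in alveolar organoids, at 243, 283 and 249 CPM against 110 to 127 CPM in the trachea (log2 fold change 1.21, SE 0.10, adjusted p = 8.37e-06), and Lamc1 (γ1, shared by most laminins) by 0.49 (SE 0.15, adjusted p = 0.0167). Lama5 fell by 0.95 (SE 0.17, adjusted p = 0.00117) and Lama1, the α1 chain of embryonic laminin, by 2.02 on the log2 scale (SE 0.26, adjusted p = 0.000119). Lamb1 and Lamc3 did not pass. Of the leukocyte subunits, Itgam was at 6.43 to 16.2 CPM in the trachea and at 0.23 to 0.86 CPM in the alveolar cultures (log2 fold change -4.52, SE 0.56, adjusted p = 0.000107). Itgal, also lower (-2.51, adjusted p = 0.0364), lost its call in 6 of the 10 fits that left out a culture, with adjusted p up to 0.121. Leukocyte markers moved as well. Their sum over 5 genes was 53.5 to 66.1 CPM in the tracheal and 17.6 to 18.5 CPM in the alveolar cultures, most of it Cd68 (52.0 to 64.8 and 14.2 to 14.5 CPM). Of the 3 tested, 1 was called lower and 2 higher in alveolar organoids, and Ptprc, the pan-leukocyte marker, was at 0 to 3 counts in the tracheal libraries. Their part in the lower Itgam and Itgal was not tested.

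Partners of these genes, 41 in 5 lists, were counted in the same way. Of 40 tested, 28 passed, 16 higher and 12 lower in alveolar organoids, beside 60.9%, 29.5% and 31.4% of all genes. Among 5 hemidesmosome partners 3 were lower and 0 higher, led by Col17a1, the hemidesmosomal collagen, at 809, 649, 757 and 685 CPM in the trachea and 0.57, 1.23 and 26.5 CPM in the alveolar cultures (log2 fold change -6.24, SE 1.31, adjusted p = 0.00257). The kindlin gene Fermt1, an integrin activator of epithelia, fell by 5.68 on the log2 scale. All 7 basement membrane partners passed, 5 of them higher, with the largest rises in Nid2, a nidogen that links laminin to collagen IV (log2 fold change 4.804), and Col4a1 (3.26), the main collagen IV chain.

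Between mixed and bronchiolar BASC organoids and tracheal organoids few members were called, which does not show that the groups are alike. A single member, Itga7, was called (log2 fold change 3.14, SE 0.45, adjusted p = 0.0163), against 1.45% of all genes. At an unadjusted p under 0.05 in edgeR there were 11 members and 3482 of the 18754 genes. The call was lost without NGFR-negative Ad-Cre, NGFR-positive Ad-GFP, NGFR-positive Ad-Cre or mixed BASC Ad-Cre (adjusted p up to 0.0752). Next by p came Itga11 (0.90, adjusted p = 0.0563) and Itga8 (0.98, adjusted p = 0.0683), neither past the threshold. Itgb4 (-0.22, SE 0.47), Lamb3 (-0.17, SE 0.26) and Itga2 (0.77, SE 0.40) did not pass, with adjusted p of 0.853, 0.789 and 0.339. Without the mixed BASC Ad-GFP culture 14 members passed, while the calls over all genes went from 272 to 3929. DESeq2 called 8 members and 1332 genes on all cultures, and 2 members and 95 genes passed without the bronchiolar BASC culture. Of the partners, Thbs1 (thrombospondin 1) was higher (1.17, adjusted p = 0.0119) and Tln2 (talin 2) lower (-0.88, adjusted p = 0.0185).

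Set against the mixed and bronchiolar BASC organoids, the alveolar organoids differed in 25 members, 10 higher and 15 lower, where 53.1% of all genes were called, 25.5% higher and 27.6% lower. The median log2 fold change was -0.51 over members and -0.05 over all genes. Members called here and not against the trachea were Itga4, Itga5, Itgav and Itgb3, all lower in the alveolar organoids. Under the alternative fits Itga5 lost its call in 5 of 18 and Itgav in 3 of 18. Of the other members called here, Itgal lost its call in 9 of 17 and Lamc1 in 6 of 18. Itga5 was at 61.2 CPM in mixed BASC with Ad-GFP, within the alveolar range of 56.6 to 70.6 CPM. Itgb3, the β3 subunit of the vitronectin receptor, was at 14.9, 52.4 and 88.3 CPM in the BASC and at 10.3, 15.4 and 11.8 CPM in the alveolar cultures (log2 fold change -1.99, SE 0.49, adjusted p = 0.00747), and its lowest BASC culture, mixed BASC with Ad-GFP, overlapped them. Whether Itga4, Itga5, Itgav and Itgb3 differed more in this contrast than in the tracheal contrast was not tested. Of 40 partners tested, 13 were higher and 10 lower, beside the same 25.5% and 27.6% of all genes, with Nid2 (4.04) and Col4a1 (2.27) highest and Fermt1 (-6.47) and Col17a1 (-4.91) lowest by log2 fold change.

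Between NGFR-positive and NGFR-negative tracheal organoids (2 against 2) edgeR called 0 members, against 0.267% of all genes. At an unadjusted p under 0.05 there were 12 members and 1413 genes, and DESeq2 called 2 members, Itga2 and Itgam, and 218 genes. Itga2 was at 106 and 138 CPM in the NGFR-negative and at 171 and 210 CPM in the NGFR-positive cultures, without overlap (log2 fold change 0.64, SE 0.14, adjusted p = 0.167). Itgam was at 11.4 and 16.2 CPM against 6.43 and 9.31 CPM (-0.81, SE 0.21, adjusted p = 0.267) and Itga9 at 11.2 and 10.6 CPM against 8.13 and 6.93 CPM (-0.53, SE 0.14, adjusted p = 0.288). Leaving out a culture gave 3 members (without NGFR-negative Ad-Cre), 1 (without NGFR-negative Ad-GFP), 1 (without NGFR-positive Ad-Cre) and 0, beside 410, 315, 68 and 52 of all genes. Itgb4 (0.06, SE 0.13, adjusted p = 0.966) and Lamb3 (0.18, SE 0.10, adjusted p = 0.718) also did not pass. Among the 40 partners tested, 0 were called.

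Ad-Cre was compared with Ad-GFP within 4 populations, the test of the EGFR transgene's activation before transplantation. EdgeR called 0 of the 33 members and 0% of all 17749 genes, where 2 members and 350 genes had an unadjusted p under 0.05, and DESeq2 called 0 members. The median log2 fold change was 0.16 over the members. Itgb6, Lama3 and Itga3 were higher with Ad-Cre in all 4 pairs, 3 members where 5.36% of all expressed genes did so. Itgb6 went from 106 to 128 CPM (NGFR-negative), 141 to 159 CPM (NGFR-positive), 25.4 to 42.6 CPM (AT2) and 119 to 215 CPM (mixed BASC). Over the 4 pairs this came to 0.50 on the log2 scale (SE 0.14, adjusted p = 0.994).

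Lama3 went from 384 to 397, 460 to 491, 65.6 to 117 and 263 to 444 CPM in the same pairs (log2 fold change 0.42, SE 0.17, adjusted p = 0.994), and Itgav, the αv subunit, had 0.23 (SE 0.12, adjusted p = 0.994). Itga2 moved in opposite directions in the distal pairs, from 19.8 to 8.97 CPM in AT2 cells and from 127 to 257 CPM in mixed BASCs (log2 fold change over all pairs 0.15, SE 0.34, adjusted p = 0.994). Itgb4 went from 3.22 to 12.3 CPM in AT2 cells and from 586 to 456 CPM in NGFR-negative cells (0.43, SE 0.37, adjusted p = 0.994), and Lamb3 from 90.6 to 179 CPM and from 419 to 383 CPM (0.41, SE 0.22, adjusted p = 0.994). No member was called, so these pairs are given as values. Marker sums also moved in the distal pairs from Ad-GFP to Ad-Cre. In AT2 cultures the basal sum went from 5.65 to 16.1 CPM and the club sum from 298 to 599 CPM. In mixed BASCs 4 ciliated markers (Foxj1, Ccdc39, Dnah5, Tekt1) went from 770.5 to 185.3 CPM, the AT2 sum from 606 to 2289 CPM and the fibroblast sum from 1119 to 2563 CPM. Their part in the values above was not tested.

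**Figure D4:**
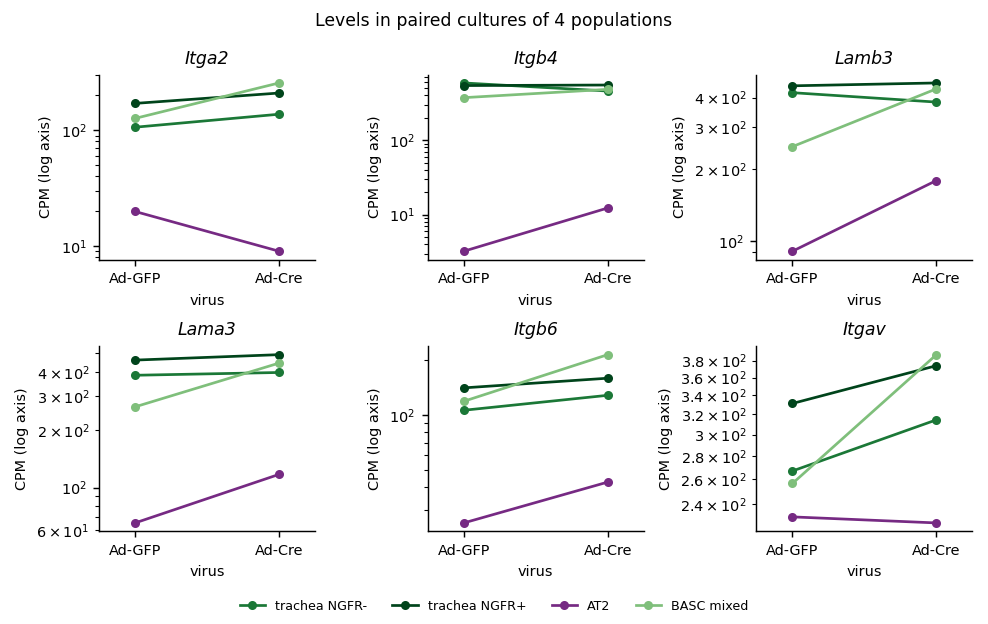
CPM (log axis) of 6 members in the Ad-GFP and Ad-Cre cultures of 4 populations, with a line joining the cultures of a population. Itgb6 and Lama3 are higher with Ad-Cre in all 4 pairs, whereas Itga2 is lower with Ad-Cre in AT2 cells, at 8.97 against 19.8 CPM.

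Whether the virus difference itself differed between regions was tested with an interaction term, coded as tracheal minus distal. EdgeR called 0 members and 0% of all genes. At an unadjusted p under 0.05 there were 9 members and 852 of all 17749 genes, and DESeq2 called 1 member, Lamb3, and 141 genes. The term for Lamb3 was -0.94 (SE 0.20, adjusted p = 0.577), with pair log2 ratios of Ad-Cre over Ad-GFP of -0.13 and 0.04 in the trachea and 0.985 and 0.805 (AT2, mixed BASC) in the distal lung. Those for Lama3 (-0.73, SE 0.18, adjusted p = 0.736), Itgam (1.35, SE 0.33, adjusted p = 0.7), Itgb4 (-1.29, SE 0.54, adjusted p = 0.998) and Itga2 (0.38, SE 0.70, adjusted p = 0.998) did not pass either. Leaving out the AT2 pair gave 9 called members and 1562 genes, and leaving out the mixed BASC pair gave 3 and 323, in fits with a single distal pair whose spread is assumed to be that of the tracheal pairs. Itga2 passed in both with opposite signs, at -0.71 without the AT2 pair (adjusted p = 0.0469) and 1.48 without the mixed BASC pair (adjusted p = 0.00361). Among the 40 partners, 0 were called for virus and 0 for the interaction.

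Transplantation was addressed by setting the 7 transplant tumoroids against the 4 distal Ad-Cre organoids. Of the 33 members, 5 passed, all lower in the tumoroids, where 19.6% of all genes were called, 10.8% higher and 8.77% lower. The median log2 fold change was -0.67 over the members and -0.002 over all genes. Lama2 was at 31.3, 5.67, 19.6 and 2.83 CPM in the organoids of AT2 cells, mixed, alveolar and bronchiolar BASCs, and between 0.50 and 3.64 CPM in the tumoroids, with a median of 1.48 CPM. The bronchiolar organoid lay within the tumoroid range and the other 3 above it (log2 fold change -2.84, SE 0.68, adjusted p = 0.0147).

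Itga8 was at 39.2, 11.25, 35.4 and 6.57 CPM in the same organoids and at 2.28 to 14.0 CPM in the tumoroids, median 3.97 CPM, with an overlap (-2.04, SE 0.57, adjusted p = 0.0303). Itgav was at 226, 387, 231 and 494 CPM and at 86.4 to 273 CPM, median 129 CPM (-1.14, SE 0.34, adjusted p = 0.0361). Itga4, the α4 subunit that binds VCAM1 and fibronectin, was at 1.72 to 4.72 CPM and at 0 to 1.253 CPM, without overlap (-2.46, SE 0.75, adjusted p = 0.0412). AT2 tumoroid replicate 2 held 0 counts of Itga4, which allows up to 0.142 CPM, and exons of Itga4 overlap those of Cerkl, at a mean of 0.645 CPM. Lamc3, the γ3 chain, was at 0.98 to 2.18 CPM and at 0.08 to 0.78 CPM, also without overlap (-2.02, SE 0.57, adjusted p = 0.0303).

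These calls were sensitive to single libraries. Leaving out any of the 11 cultures in turn moved the count to between 1 and 12, to 12 without the bronchiolar tumoroid, 8 without AT2 tumoroid replicate 3, 1 without mixed BASC tumoroid replicate 3 and 2 or 3 without any other. Over all genes the calls then ranged from 1973 to 3716, with the most again without the bronchiolar tumoroid. Without the bronchiolar tumoroid, Itga2 (-3.42, adjusted p = 0.0275) and Itgb4 (-3.40, adjusted p = 0.0375) were among the 12. Of the 5, Lama2 kept its call in the most of these fits. It lost it only without the AT2 Ad-Cre organoid (adjusted p = 0.0561), while the other 4 each lost theirs without 5 to 8 of the 11. The 4 organoids included mixed and bronchiolar BASC cultures, and Itga2, Itgb4, Itga4 and Itgav were also called lower in alveolar than in such BASC organoids. For these genes lineage make-up and transplantation cannot be told apart in this comparison. Against the alveolar organoids alone (6 AT2 and mixed BASC tumoroids and 2 organoids), 2 members passed, both among the 5. Itga2 (0.59) and Itgb4 (0.48) had the opposite sign there and did not pass. Fibroblast markers summed to 2043 to 4979 CPM in the 4 organoids and to 265 to 6165 CPM in the 7 tumoroids, and their part in these differences was not tested.

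The leading airway genes did not pass. Itgb4 was at 12.3, 481, 22.9 and 535 CPM in the AT2, mixed, alveolar and bronchiolar BASC organoids and at 3.65 to 786 CPM in the tumoroids, with a median of 28.5 CPM (log2 fold change -0.96, SE 1.41, adjusted p = 0.673). Itga2 was at 8.97, 257, 12.3 and 423 CPM and at 5.97 to 86.6 CPM, median 17.3 CPM (-2.72, SE 0.98, adjusted p = 0.0727). For Lamb3 it was -0.67 (SE 0.80, adjusted p = 0.592). The organoid group held alveolar and bronchiolar cultures, which lay far apart in these genes. Of 40 partners 5 passed, where 19.6% of all genes were called. Pxn (paxillin, 0.78, adjusted p = 0.00341) and Src (the kinase, 0.56, adjusted p = 0.013) were higher, and Col7a1 (the anchoring fibril collagen, -2.89, adjusted p = 0.0446) and Thbs1 (-2.19, adjusted p = 0.0033) had the largest falls.

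**Figure D5:**
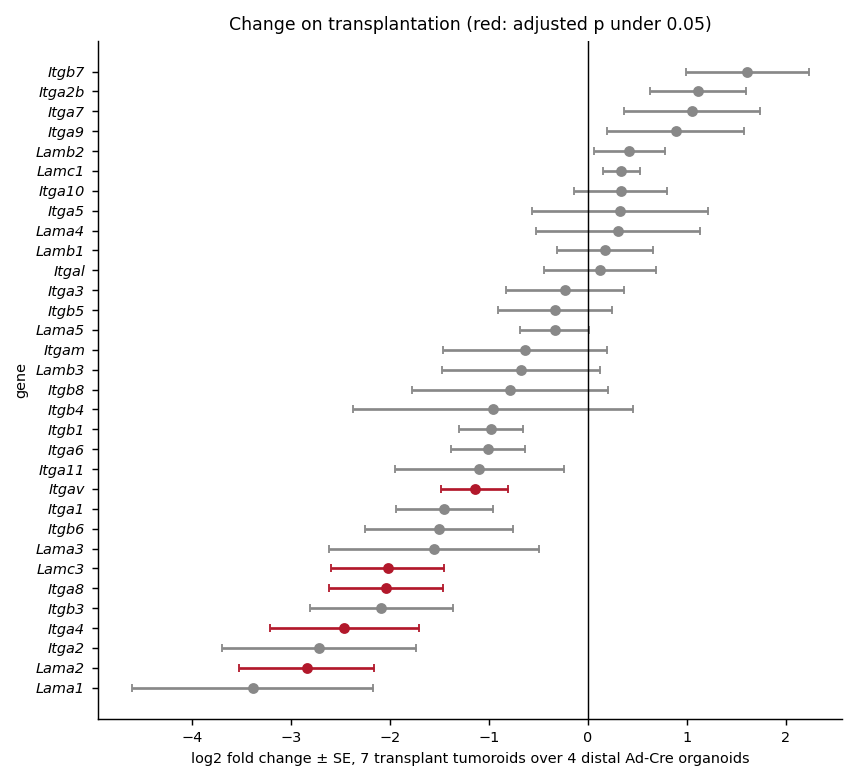
Log2 fold change ± SE of the members shown between the 7 transplant tumoroids and the 4 distal Ad-Cre organoids, from edgeR, in order of size, with adjusted p under 0.05 in red. The 5 called members all lie below 0, and Itgb4 has the widest error (SE 1.41).

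AT2 and mixed BASC tumoroids (3 against 3) did not differ in any member by edgeR, which called 0 of the 31 tested and 0% of all 15470 genes. No member had an unadjusted p under 0.05 and DESeq2 called 0. Itgb4 was at 28.5, 8.78 and 3.65 CPM in the AT2 and at 48.5, 26.05 and 30.4 CPM in the mixed BASC tumoroids, which overlapped (log2 fold change -1.36, SE 0.71, adjusted p = 1). Itga6 (-0.58, SE 0.29), Itga3 (-0.47, SE 0.22), Itga2 (-0.66, SE 0.54) and Lamb3 (-0.44, SE 0.76) all had an adjusted p of 1. Among 39 partners tested, 0 were called.

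The spread was large within the AT2 group. AT2 tumoroid replicate 3 held Itga5, the fibronectin receptor subunit, at 533 CPM (11.5 to 120 CPM in the other 6 transplant tumoroids), Itga11 at 52.0 CPM (1.42 to 13.8 CPM) and Lama4 at 230 CPM (8.74 to 97.4 CPM). It also held the lowest Lama3 (4.15 CPM) and Lamb3 (14.3 CPM) of the 7. Its fibroblast sum was the highest, at 6165 CPM, beside 547 and 265 CPM in the other AT2 tumoroids. The label number of replicate 3 is shared with replicate 2, which had the lowest fibroblast sum.

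The single bronchiolar BASC tumoroid was set against the range of the 6 AT2 and mixed BASC tumoroids, with no test. It lay outside that range and more than 4-fold from the mean in 9 of the 33 members, 7 higher and 2 lower, where 7.9% of all expressed genes did so, 4.04% higher and 3.87% lower. Itgb4 was at 786 CPM against 3.65 to 48.5 CPM, 32.2-fold above the mean of the 6. Lama3 was at 503 CPM against 4.15 to 91.8 CPM (11.9-fold) and Lamb3 at 771 CPM against 14.3 to 158 CPM (7.88-fold).

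Itga2 (86.6 CPM, 5.44-fold), Itgb3 (32.4 CPM, 5.41-fold), Itgb6 (152 CPM, 4.89-fold) and Itga3 (1171 CPM, 4.51-fold) were the others above the 6 tumoroids. Itga7, at 74.7 CPM against 255 to 488 CPM, and Itga9, at 36.8 CPM against 65.8 to 304 CPM, lay below, each 5.01- and 5.05-fold under the mean. The summed AT2 markers of this tumoroid were 6284 CPM (15900 to 88160 CPM in the 6), and its summed basal markers 1736 CPM (1.18 to 24.97 CPM), and its Itgb4 exceeded that of every other culture.

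The autochthonous tumoroid, also a single library on the tumoroid platform, lay outside the range of the 6 in 9 of 33 members, 8 above and 1 below, where 31% of all expressed genes did so, a share close to that of the members. The share of all genes is not given by direction, so the split of 8 to 1 cannot be set beside it. The members above were Lamc3 (3.38 CPM, 6.93-fold over the mean of the 6), Lama2 (12.1 CPM, 5.40-fold), Itga8 (32.8 CPM, 5.36-fold), Itga1 (19.7 CPM, 3.71-fold), Itgb3, Itga10, Lamb2 and Itgb1. Itga7 was below, at 152 CPM against 255 to 488 CPM. Lama2, Itga8 and Lamc3 are also 3 of the 5 members called lower in transplant tumoroids, and adding this library to the tumoroids removed those 3 calls (adjusted p = 0.0706, 0.202 and 0.406). Its Itgb4, at 16.7 CPM, and Lamb3, at 81.7 CPM, lay within the range of the 6, and its fibroblast sum was 1792 CPM.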

How the data were processed

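RNA sequencing of 18 cultures, 10 organoids and 8 tumoroids, was analysed, with groups taken from the sample labels. AT2 tumoroids carry an NGFR-negative sorting label beside their AT2 origin and were placed by origin. The authors trimmed reads with Trimmomatic (0.39), mapped them to the Ensembl annotation of GRCm38, and deposited the expected count per gene from RSEM (1.3.2), not normalized between samples. STAR (2.6.1d) is also named in the submitters' processing notes. The TPM values, scaled by length within each sample, were likewise deposited by the authors. Whether strand was used in counting is not given in the sources used here. Of 46603 genes, 46091 were matched to GENCODE vM21 symbols and 512 were not. Reads of the human transgene were not used here, and a member is not reported here.

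Expected counts were rounded and tested in R 4.3.3 with edgeR 4.0.16 (filterByExpr, TMM factors, quasi-likelihood test), with Benjamini-Hochberg adjustment over all genes tested and an adjusted p under 0.05 as the threshold. Unless DESeq2 is named, each adjusted p is from this fit. The SE is the fold change divided by the root of the F statistic. In the virus comparison, population was a block, since the study divided each sorted population between the viruses. Single tumoroids were compared by range and mean (with 0.1 CPM added for folds), without a test. A count of 0 allows up to 3 counts. This and the depth cover counting error only.

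Alternatives were DESeq2 1.42.0, other scaling factors (upper-quartile or DESeq2's), no filter, at least 10 counts in every sample, limma 3.58.1 on log2(TPM + 1), other sample sets and leaving out each culture or pair. Tests were also run on simulated counts that gave every comparison the same spread between libraries. The spreads estimated from the data differed between comparisons, so this run does not show how the tests perform in the noisier tumoroid comparisons. No library of a group matched another within sampling noise. Named genes were Itga2, Itgb4, Lamb3 and, in each comparison, the members past the threshold or the 3 with the smallest p, with up to 2 partners per direction. Beyond that, members were named after their values were seen. Members, classes and partner lists were chosen with earlier results of these data known. Upstream sequences were taken from RefSeq (GRCm38.p6).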

Additional observations from a re-analysis of the deposited data

Results flagged for a closer look

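In groups of 4 to 7 cultures, 18 of the highest or lowest values over 99 combinations of gene and group lay farther from their neighbours than Dixon's 95% limit allows. About 1 in 20 groups would do so if values were independent and normal, but the genes of a library are not independent. The rule was applied to the members only, so the share over all genes is not known. The flags therefore do not set the members apart from other genes. In the bronchiolar tumoroid 8 members stood above the other 6 transplant tumoroids: Itgb4 at 785.9 CPM (highest of the others 48.5), Itga3 at 1171 CPM (328.5), Itgb1 at 1374 CPM (642.9), Lama3 at 502.6 CPM (91.8), Lamb3 at 770.5 CPM (157.6), Itgb3 at 32.4 CPM (10.4), Itga2 at 86.6 CPM (29.6) and Itgb6 at 152.4 CPM (59.0). In AT2 tumoroid replicate 3 there were 4, Itga5 at 533 CPM (119.9), Itga11 at 52.0 CPM (13.8), Lama4 at 229.8 CPM (97.4) and Itgb8 at 28.2 CPM (11.9), in the library with the highest fibroblast marker sum. Itga8 was highest in mixed BASC tumoroid replicate 1, at 14.0 CPM (6.51).

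In the tracheal organoids the NGFR-negative Ad-GFP culture, the least deeply sequenced organoid library, stood apart in 4 members by small amounts. Itgb1 was at 875.5 CPM (lowest of the others 1074), Itgb5 at 169 CPM (highest of the others 155.1), Itgb8 at 4.68 CPM (3.31) and Lamb1 at 242.6 CPM (224.3). Among the distal Ad-Cre organoids Itgb7 was highest in the AT2 culture, at 1.90 CPM (1.17). No cause of these values was tested.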

How the results depend on the processing

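Over all alternatives 1337 values of single genes were recomputed, of which 1230 kept their direction and their side of the threshold, 71 lost the call, 25 gained it and 11 changed sign. The counts of called members against trachea (21) and against the mixed and bronchiolar BASC organoids (25) stayed within 1.5 times under every alternative, at 20 to 24 and 20 to 27 when a culture was left out. Mixed and bronchiolar BASC against tracheal organoids gave 8 with DESeq2, 2 with Ad-Cre organoids only and 0 to 14 when a culture was left out. NGFR-positive against NGFR-negative gave 2 with DESeq2, 5 without a filter and 0 to 3 when a culture was left out, and virus by region 1 with DESeq2 and 0 to 9 when a pair was left out. Tumoroids against organoids gave 12 with DESeq2, 2 with limma on TPM, 2 against alveolar organoids and 1 to 12 when a culture was left out, and 6 without the pair of tumoroids highest in fibroblast markers, an alternative chosen after seeing the data. The cause of these shifts was not tested.

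The sign changes were in genes that were not called with all cultures. Some passed in other fits: the interaction of Itga2 when either distal pair was left out, and Itga2 and Itgb4 in tumoroids without the bronchiolar tumoroid. With Ad-Cre only, Lamb3 between BASC and tracheal organoids was 0.083 (from -0.32 to 0.063 when a culture was left out). Itgb4 between NGFR groups ranged from -0.12 to 0.26 when a culture was left out. For the virus, Itga2 ranged from -0.14 to 0.56 when a pair was left out, Itgb4 was -0.015 with no replicate block and -0.18 in the 4 tracheal cultures, and Lamb3 was -0.052 in the latter. The interaction of Itga2 ranged from -0.71 to 1.48 without a pair. Against alveolar organoids alone, tumoroids had Itga2 at 0.59 and Itgb4 at 0.48. Lamb3 between tumoroid groups ranged from -1.29 to 0.057. The replicate block by virus left the NGFR count at 0, and no replicate block left the virus count at 0, so the block changed no call. No 2 scalings moved the median of all genes by over 0.1.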

Other observations

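Some partner genes, chosen here after their values were seen, were higher in the bronchiolar tumoroid than in the AT2 and mixed BASC tumoroids. Tnc, which encodes tenascin-C, was at 2600 CPM there and at 32.0 to 472 CPM in the AT2 and mixed BASC tumoroids, and Col17a1 was at 41.4 CPM against 0 to 0.58 CPM. Tnc stood high in the bronchiolar BASC organoid as well, at 1991 CPM. Col17a1 was at 142 CPM there, above the alveolar organoids (0.57 to 26.5 CPM). That was below the mixed BASC (405 and 323 CPM) and tracheal organoids (649 to 809 CPM). Fn1, which encodes fibronectin, was at 121, 206 and 3295 CPM in AT2 tumoroid replicates 1, 2 and 3, the last of which had the highest fibroblast sum.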
